A study of Mus musculus with 8 samples.

Results

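The 9 genes described here are the ligands and receptors of the vascular endothelial growth factor (VEGF) system: the ligands Vegfa, Vegfb, Vegfc and Pgf, the receptor tyrosine kinases Kdr, Flt1 and Flt4, and the co-receptors Nrp1 and Nrp2. They were chosen by name, 4 ligands and 5 receptors, from the 53647 genes of a raw count table, and all 9 had a count. PolyA RNA had been sequenced from sorted leukemia macrophages of C57BL/6 mice after 12 h in culture, in 4 libraries from co-culture with mesenchymal stromal cells (MSC, the fibroblast-like support cells of marrow; these macrophages are called E-Mac, for MSC-educated) and 4 libraries from macrophages cultured alone (Mac). Both groups thus carry the leukemia setting, and the contrast is the co-culture. The sources used here do not give the leukemia model, the sort gates or the origin of the MSC. Nor do the labels tie the libraries to separate animals or cultures, so that p-values cover the spread between these 8 samples and no more, and that spread may be technical.

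VEGF ligands are secreted dimers that bind receptor tyrosine kinases, best known on endothelial cells, where they drive vessel growth, survival and permeability. VEGF-A signals mainly through KDR (VEGFR2), while FLT1 (VEGFR1) binds it tightly, signals more weakly and can act as a decoy. FLT1 is also the VEGF receptor known from monocytes and macrophages, in which it guides migration. FLT4 (VEGFR3) serves VEGF-C and lymphatic vessels, and the neuropilins NRP1 and NRP2 bind both VEGF and class 3 semaphorins. Macrophages are a known source of VEGF-A in tumours.

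Kdr, Nrp2 and Vegfa were each several-fold higher in E-Mac than in Mac, Nrp1 was slightly higher and Flt1 lower. Per exon length, Nrp2, Nrp1 and Kdr were the most abundant receptor transcripts in E-Mac, and Nrp1 and Flt1 those in Mac. Of the 9 genes 7 passed a filter on low counts, which asks for 0.656 CPM in at least 4 libraries (CPM, counts scaled to 1000000 per library after TMM correction; the filter takes them before it). Vegfc and Pgf did not pass it. By edgeR's quasi-likelihood test, with p-values adjusted by Benjamini-Hochberg over all 13412 genes tested, 5 of the 7 were called at an adjusted p under 0.05, 4 of them higher in E-Mac and 1 lower. The background is wide: 58.3% of all tested genes were called, 29.5% higher and 28.8% lower, so a call by itself sets no gene apart here. A called change of 2-fold or more was found in 4 of the 7 (Kdr, Nrp2, Vegfa and Flt1) and in 20.1% of all tested genes. The median log2 fold change, E-Mac over Mac, was 1.27 over the 7 and 0.00 over all tested genes.

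The promoters of Vegfa, of its main signalling receptor Kdr and of Flt1, whose counts moved the other way, are shown because these 3 genes hold the clearest contrast in the system. Each line is 250 bases before the start that RefSeq (GRCm38.p6) gives, 5′ to 3′ on the gene's strand. For Vegfa, with 2 starts in the table, the outermost was used. Capitals mark GC boxes (GGGCGG or its reverse complement CCGCCC) and, in Flt1, 1 cAMP response element (TGACGTCA) and 1 TATA box (TATAAA). The Vegfa window lies at chr17:46032378-46032627 on the minus strand, Kdr at chr5:75978456-75978705 on the minus strand and Flt1 at chr5:147726012-147726261 on the minus strand.
Vegfa: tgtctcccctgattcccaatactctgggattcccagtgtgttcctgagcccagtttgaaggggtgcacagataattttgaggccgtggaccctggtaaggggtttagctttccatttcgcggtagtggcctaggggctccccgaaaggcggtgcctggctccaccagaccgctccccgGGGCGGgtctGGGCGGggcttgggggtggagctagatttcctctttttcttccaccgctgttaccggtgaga
Kdr: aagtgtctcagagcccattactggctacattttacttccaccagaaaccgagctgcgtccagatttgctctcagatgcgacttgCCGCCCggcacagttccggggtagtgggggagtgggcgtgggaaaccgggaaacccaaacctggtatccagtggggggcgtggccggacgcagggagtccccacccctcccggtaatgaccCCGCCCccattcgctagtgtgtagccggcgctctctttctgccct
Flt1: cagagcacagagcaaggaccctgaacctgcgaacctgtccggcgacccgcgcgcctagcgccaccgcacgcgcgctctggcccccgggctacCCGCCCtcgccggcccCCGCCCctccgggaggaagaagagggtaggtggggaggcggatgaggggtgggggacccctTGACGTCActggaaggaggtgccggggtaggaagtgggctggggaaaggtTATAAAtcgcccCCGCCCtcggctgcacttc
The windows of all 9 genes held a GC box, with 1 (Nrp1) to 5 (Nrp2) matches, against a GC box in 32.7% of the 32851 promoters of the same length in the table. The member windows had a GC content of 59.2% (Vegfa) to 76.4% (Vegfb). The 32.7% is over promoters of any GC content, and no comparison at like GC content was made. Flt1 differed from the other 8 in its letters: the cAMP response element, 81 bases before the start, is in 1.55% of all promoters, and the TATA box, 31 bases before it, in 12.4%. Both were searched on both strands and neither was found in the other 8 windows. The ACGTG form of the hypoxia-response core (16.6% of promoters), the AP-1 motif TGANTCA (6.75%) and the STAT motif TTCNNNGAA (7.02%) matched none of the 9 windows on either strand. This says only that these letters are not within these 250 bases. The other form of that core, GCGTG, was not searched. It can be read in the Kdr window above and, on the other strand, in that of Flt1.

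Vegfa, the main angiogenic ligand (chr17:46016993-46032369, minus strand, 8 merged exons; mm10, GENCODE M21), was the most abundant ligand in both groups. It stood at 213, 189, 204 and 165 CPM in E-Mac 1 to 4, against 33.2, 39.7, 38.1 and 31.4 CPM in Mac 1 to 4. The lowest E-Mac library was several times the highest Mac library, and E-Mac 4 was the lowest of its group. The groups did not overlap for 4 of the 7 tested members (Vegfa, Kdr, Nrp2 and Flt1), against 53.9% of all tested genes. Vegfa averaged 193 ± 21.0 CPM in E-Mac and 35.6 ± 3.94 CPM in Mac (SD, n = 4 each), 5.42-fold higher (log2 fold change 2.44 ± 0.10, SE; adjusted p = 3.53e-10). Its log2 fold change was above that of 97.3% of the tested genes. In these bulk samples fewer cells of a type and less RNA per cell cannot be told apart, and gene counts do not separate the splice forms of Vegfa.

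Vegfb, a ligand of FLT1 and NRP1 tied to fatty acid handling more than to vessel growth (chr19:6982473-6987651), had 5.14, 4.40, 4.51 and 4.38 CPM in E-Mac 1 to 4, against 5.65, 5.49, 4.85 and 3.82 CPM in Mac 1 to 4. The groups overlapped. The log2 fold change was -0.10 ± 0.18 (95% interval -0.45 to 0.24; adjusted p = 0.643). A change in either direction within that interval is compatible with the counts. Within each library the log2 ratio of Vegfa to Vegfb, which needs no scaling between libraries, was 5.37 ± 0.11 in E-Mac and 2.85 ± 0.21 in Mac (SD, n = 4 each). The difference of 2.52 had an exact two-sided permutation p of 0.0286, the smallest that 4 against 4 libraries allow, and of 0.0286 adjusted over the 4 ratios tested.

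Vegfc, the lymphangiogenic ligand of FLT4 (chr8:54077606-54187096), was the ligand whose counts moved the other way. It had 2, 2, 2 and 4 counts in E-Mac 1 to 4, against 8, 15, 39 and 25 counts in Mac 1 to 4. Every E-Mac library was under every Mac library, though Mac itself spread widely. The 10 counts in E-Mac against 87 in Mac give a level 8.06-fold higher in Mac (95% counting interval 4.18 to 17.4, counting error only). With no filter on low counts, a fit over 25583 genes of which 32.2% were called, 15.0% lower and 17.2% higher, Vegfc fell (log2 fold change -2.91 ± 0.58, adjusted p = 7.08e-06). The log2 ratio of Vegfc to Vegfa was -9.86 ± 0.58 in E-Mac and -4.80 ± 0.88 in Mac, a difference of -5.05 (exact two-sided permutation p = 0.0286, adjusted 0.0286). Vegfc thus stood at 0.157 ± 0.0826% of the summed ligand level per exon length in E-Mac and at 4.82 ± 2.55% in Mac.

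Pgf, placental growth factor, which binds FLT1 but not KDR (chr12:85166635-85177790), was close to the limit of detection. It had 5, 13, 5 and 20 counts in E-Mac 1 to 4, against 0, 2, 0 and 1 counts in Mac 1 to 4. The groups did not overlap, and the highest E-Mac values were those of libraries 2 and 4. The ratio of 43 to 3 counts was 15.5-fold (95% counting interval 4.95 to 78.0), and the fit with no filter gave a log2 fold change of 3.74 ± 0.87 (adjusted p = 0.00016). A list of 20 stromal markers, led by the collagen genes Col1a1 and Col1a2, summed to 97.0, 479, 75.5 and 534 CPM in E-Mac 1 to 4, against 23.9 to 26.6 CPM in Mac, so the same 2 libraries were highest in both. The part of stromal RNA in the Pgf counts was not tested. Vegfd, the remaining VEGF ligand of the mouse and not among the 9, had 8 counts in E-Mac and 2 in Mac, too few for a comparison (ratio 4.32, interval 0.862 to 41.8).

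**Figure D1:**
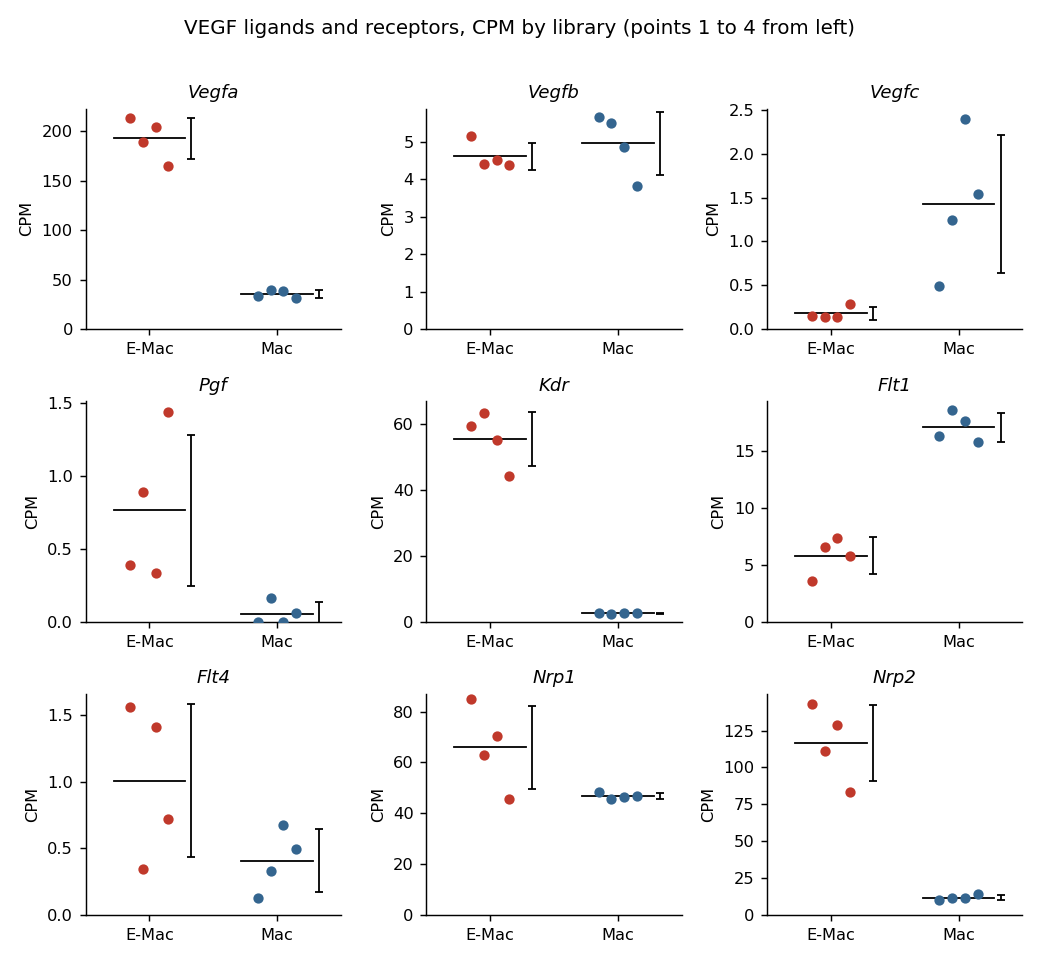
CPM of the 9 genes in each library, E-Mac left of Mac, on linear axes that differ between panels. Points are libraries 1 to 4 from left to right, the horizontal line is the group mean and the bar beside it 1 SD, drawn down to 0 at most. Vegfa, Kdr and Nrp2 lie higher and Flt1 and Vegfc lower in all 4 E-Mac libraries, while Vegfb, Flt4 and Nrp1 overlap.

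Kdr, the main signalling receptor for VEGF-A (chr5:75932827-75978458, minus strand, 29 merged exons), showed the greatest fold change of the tested members. It had 59.6, 63.5, 55.2 and 44.4 CPM in E-Mac 1 to 4, against 2.73, 2.50, 2.83 and 2.65 CPM in Mac 1 to 4. The Mac libraries hardly varied, and the lowest E-Mac library was far above them. Kdr averaged 55.7 ± 8.24 CPM in E-Mac and 2.68 ± 0.139 CPM in Mac (SD, n = 4 each), 20.7-fold higher, with a log2 fold change of 4.37 ± 0.14 (95% interval 4.10 to 4.64; adjusted p = 3.96e-11). This placed Kdr 98 from the top among all tested log2 fold changes, above 99.3% of them. Kdr is a defining gene of endothelial cells, so other endothelial genes were read beside it. Of 18 endothelial markers 6 (Emcn, Cldn5, Robo4, Sox17, Ptprb and Clec14a) were at 0 in all E-Mac libraries. In the Mac libraries together the same 6 had 4, 2, 7, 0, 2 and 4 counts. Of the 6 tested, 2 rose and 3 fell (median log2 fold change -0.28), against 29.5% and 28.8% of all tested genes. Cdh5 passed the filter through E-Mac libraries alone and Tie1 through Mac libraries alone, so the filter set the directions these could take. The sum of the 18 was nevertheless higher: it was 136 to 213 CPM in E-Mac and 102 to 116 CPM in Mac, most of it Pecam1, which is also made by myeloid cells (167 CPM in E-Mac and 82.0 CPM in Mac). The endothelial cadherin Cdh5 was at 2.43 CPM in E-Mac and 0.196 CPM in Mac. The 3 that fell were the transcription factor Erg (4.11 CPM in E-Mac and 20.4 CPM in Mac), Vwf (2.12 CPM in E-Mac and 4.09 CPM in Mac) and the receptor Tie1 (0.135 CPM in E-Mac and 0.810 CPM in Mac). The part of endothelial RNA in the Kdr counts was not tested. Among 6 lymphatic endothelial markers, Lyve1, Prox1 and Ccl21a were at 0 in E-Mac, while Pdpn, which stromal cells and activated macrophages also make, carried a sum of 19.0 to 37.2 CPM in E-Mac, against 0.737 to 1.30 CPM in Mac. In the Mac libraries together Lyve1 had 39 counts, Prox1 2 and Ccl21a 0.

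Flt1, the high-affinity VEGF-A, VEGF-B and PlGF receptor (chr5:147561604-147726011, minus strand, 33 merged exons), was lower in E-Mac. It had 3.59, 6.60, 7.34 and 5.82 CPM in E-Mac 1 to 4, against 16.3, 18.6, 17.6 and 15.8 CPM in Mac 1 to 4. The groups did not overlap, and E-Mac 1 was the lowest. Flt1 averaged 5.84 ± 1.62 CPM in E-Mac and 17.1 ± 1.26 CPM in Mac, 2.90-fold higher in Mac (log2 fold change -1.54 ± 0.18, adjusted p = 6.67e-06), and 5.34% of the tested genes had a lower log2 fold change. The counts do not separate membrane-bound from soluble Flt1. The log2 ratio of Flt1 to Nrp1 was -3.50 ± 0.71 in E-Mac and -1.45 ± 0.13 in Mac, a difference of -2.05 (exact two-sided permutation p = 0.0286, adjusted 0.0286). The ratio of Kdr to Flt1 counts, chosen after its values were seen and given with no test, was 16.6, 9.62, 7.51 and 7.63 in E-Mac 1 to 4, against 0.167, 0.135, 0.160 and 0.168 in Mac 1 to 4. Kdr counts thus exceeded Flt1 counts in all 4 E-Mac libraries, and Flt1 counts exceeded Kdr counts in all 4 Mac libraries.

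Flt4, the VEGF-C receptor of lymphatic endothelium (chr11:49609263-49652739), was scarce. It had 20, 5, 21 and 10 counts in E-Mac 1 to 4, against 2, 4, 11 and 8 counts in Mac 1 to 4. The groups overlapped, and the lowest E-Mac value was that of library 2. Flt4 passed the filter through 3 E-Mac libraries and 1 Mac library, and its log2 fold change of 1.27 ± 0.55 did not pass the test (adjusted p = 0.0645). The call turned on single libraries. Leaving out E-Mac 2, where 55.4% of tested genes were called, gave 1.58 ± 0.52 (adjusted p = 0.0208). Leaving out Mac 3, with 52.9% called, gave 1.64 ± 0.64 (adjusted p = 0.0480).

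Nrp2, the neuropilin that pairs with FLT4 and with VEGF-C in lymphatic vessels (chr1:62703285-62818695, plus strand, 18 merged exons), was the most abundant receptor per exon length in E-Mac. It had 143, 111, 129 and 83.5 CPM in E-Mac 1 to 4, against 10.3, 11.2, 11.5 and 14.1 CPM in Mac 1 to 4. Every E-Mac library was well above every Mac library, and libraries 1 and 3 were highest. Nrp2 averaged 117 ± 25.7 CPM in E-Mac and 11.8 ± 1.63 CPM in Mac (SD, n = 4 each), 9.86-fold higher (log2 fold change 3.30 ± 0.17, 95% interval 2.97 to 3.63; adjusted p = 1.76e-08), above 98.6% of the tested genes.

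Nrp1, the neuropilin that pairs with KDR (chr8:128358604-128503363, plus strand), changed least among the called members. It had 84.8, 63.0, 70.3 and 45.4 CPM in E-Mac 1 to 4, against 48.2, 45.7, 46.2 and 46.8 CPM in Mac 1 to 4. In 3 of the 4 E-Mac libraries it was above every Mac library, whereas E-Mac 4 was below every Mac library. Nrp1 averaged 65.9 ± 16.4 CPM in E-Mac and 46.7 ± 1.08 CPM in Mac, 1.41-fold higher (log2 fold change 0.49 ± 0.15, adjusted p = 0.0131), and the call was lost with scaling by library size only (0.35 ± 0.15, adjusted p = 0.0579), where 59.8% of tested genes were called. Nrp1 shares 80 exon bases with the microRNA gene Mir1903, which had 0 counts. No other member shares exon bases with another annotated gene. The log2 ratio of Nrp2 to Nrp1 was 0.75, 0.82, 0.87 and 0.88 in E-Mac 1 to 4, against -2.22 to -1.73 in Mac. The E-Mac values lay close together although both genes varied between those libraries, and the difference of means was 2.82 (exact two-sided permutation p = 0.0286, adjusted 0.0286). Nrp2 made up 59.5 ± 0.963% of the neuropilin level per exon length in E-Mac and 17.2 ± 2.04% in Mac.

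**Figure D2:**
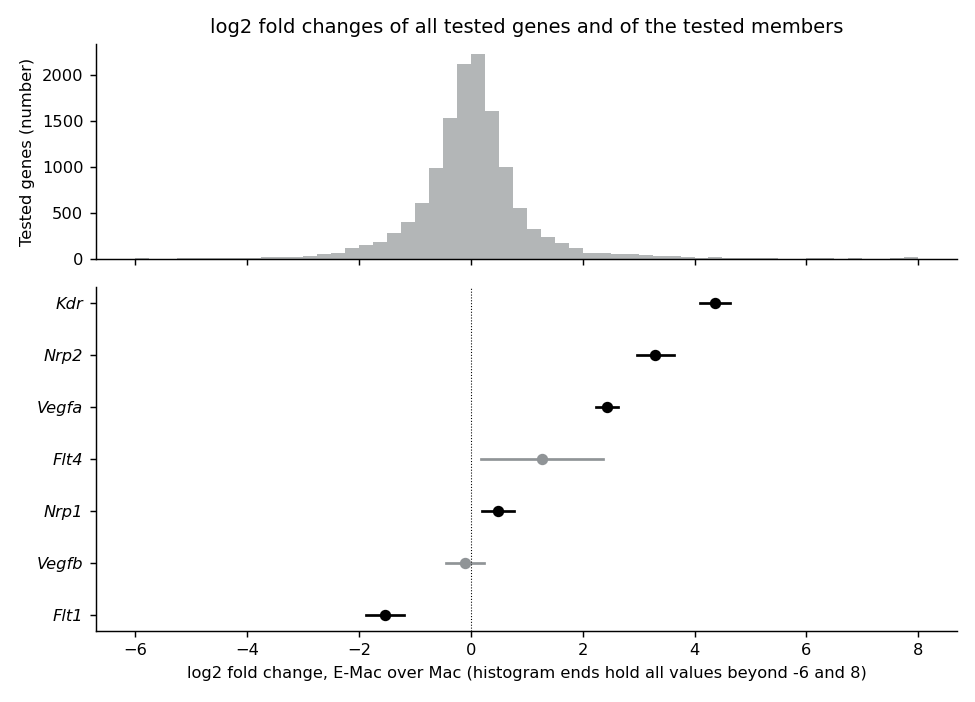
Above, the log2 fold changes, E-Mac over Mac, of all 13412 tested genes. Below, on the same axis, the 7 tested members with 95% intervals, black where the adjusted p is under 0.05 and grey where it is not: Kdr (4.37), Nrp2 (3.30) and Vegfa (2.44) lie in the thin upper tail, Nrp1 (0.49), Flt4 (1.27) and Vegfb (-0.10) within or near the bulk, and Flt1 (-1.54) below it.

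Levels of different genes were compared as CPM per kilobase of merged exons. In E-Mac the order was Vegfa (44.9 ± 4.90), Nrp2 (9.85 ± 2.17), Nrp1 (6.73 ± 1.67), Kdr (6.16 ± 0.913), Vegfb (2.87 ± 0.225), Flt1 (0.432 ± 0.120), Pgf (0.263 ± 0.177), Flt4 (0.123 ± 0.0699) and Vegfc (0.0731 ± 0.0298). In Mac it was Vegfa (8.31 ± 0.919), Nrp1 (4.78 ± 0.111), Vegfb (3.09 ± 0.518), Flt1 (1.26 ± 0.0932), Nrp2 (0.997 ± 0.138), Vegfc (0.580 ± 0.321), Kdr (0.296 ± 0.0154), Flt4 (0.0494 ± 0.0285) and Pgf (0.0196 ± 0.0271). Neighbours whose ranges over libraries overlapped were Nrp2 with Nrp1, Nrp1 with Kdr, and the genes from Flt1 down to Vegfc in E-Mac. In Mac they were Flt1 with Nrp2, Nrp2 with Vegfc, Vegfc with Kdr, and Flt4 with Pgf. On this scale too, the ranges of Kdr and Flt1 did not overlap in either group, with Kdr above Flt1 in E-Mac and below it in Mac.

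Of the summed ligand level per kilobase, Vegfa made up 93.3 ± 0.901% in E-Mac and 69.3 ± 1.36% in Mac, and Vegfb 5.99 ± 0.417% in E-Mac and 25.7 ± 3.52% in Mac. The ligand sum itself was 48.2 ± 4.87 CPM per kilobase in E-Mac and 12.0 ± 1.34 in Mac. Of the summed receptor level, Kdr made up 26.8 ± 3.11% in E-Mac and 4.02 ± 0.203% in Mac, Nrp2 42.1 ± 1.75% in E-Mac and 13.5 ± 1.71% in Mac, Nrp1 28.7 ± 1.84% in E-Mac and 64.7 ± 1.71% in Mac, and Flt1 1.94 ± 0.679% in E-Mac and 17.1 ± 1.39% in Mac. The main receptor transcript was thus Nrp2 in E-Mac and Nrp1 in Mac, and the main tyrosine kinase transcript was Kdr in E-Mac and Flt1 in Mac. The receptor sum was 23.3 ± 4.50 CPM per kilobase in E-Mac and 7.38 ± 0.0842 in Mac.

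**Figure D3:**
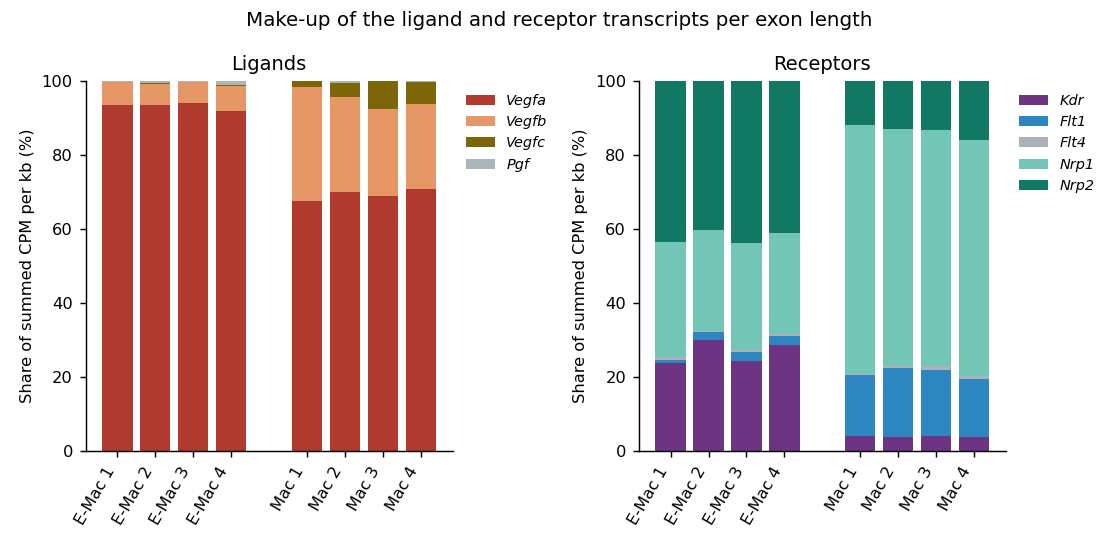
Share of each gene, in percent, of the summed CPM per kilobase of the 4 ligands (left) and the 5 receptors (right), 1 bar per library with E-Mac 1 to 4 left of Mac 1 to 4. Vegfa takes 92.0 to 94.1% of the ligand level in E-Mac and 67.6 to 70.7% in Mac, and Kdr 23.7 to 30.1% of the receptor level in E-Mac and 3.78 to 4.23% in Mac.

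The 4 E-Mac libraries were not alike. Libraries 2 and 4, which held most of the stromal marker counts, were set against libraries 1 and 3 in each member. Vegfa, Vegfb, Nrp1, Nrp2 and Flt4 were lower in libraries 2 and 4 than in 1 and 3, for Vegfb by little, and Pgf was higher. Kdr, Flt1 and Vegfc did not divide the libraries that way. Without E-Mac 2 and 4, a comparison of 2 libraries with 4, Vegfa (log2 fold change 2.56), Kdr (4.42), Nrp2 (3.53), Nrp1 (0.74) and Flt1 (-1.61) were called in the same direction, with 60.1% of 14128 tested genes called. Each of these 5 changes was at least as large there as over all 8 libraries. The remaining E-Mac 1 and 3 still had stromal marker sums above those of Mac. The part of stromal RNA in the members' changes was not tested. Flt4 passed there too (1.84 ± 0.56, adjusted p = 0.00615).

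**Figure D4:**
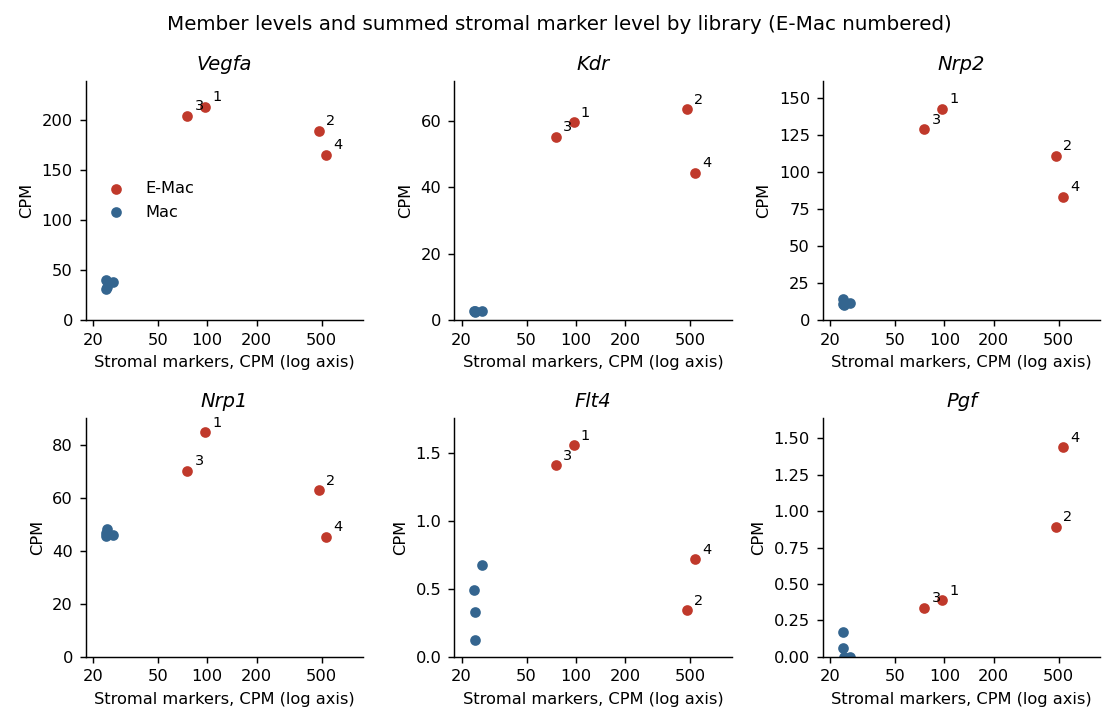
CPM of 6 members (vertical, linear) against the summed CPM of 20 stromal markers (horizontal, log axis) in each library, with E-Mac libraries numbered. Vegfa, Nrp2, Nrp1 and Flt4 are higher in E-Mac 1 and 3, which have the lower stromal sums of 97.0 and 75.5 CPM, and Pgf is higher in E-Mac 2 and 4, with 479 and 534 CPM.

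The labelled cell type was read from its markers. A list of 15 macrophage core genes, led by Lyz2 and Csf1r, summed to 8973 to 12390 CPM in E-Mac and 13032 to 14094 CPM in Mac, and none was at 0. Although the sum was lower in E-Mac, 8 of the 15 rose and 3 fell, against 29.5% and 28.8% of all tested genes. Marco, among those that rose, passed the filter through E-Mac libraries alone and so could count only as higher. A list of 16 granulocyte markers, led by S100a9 and Ngp, summed to 10852 to 17309 CPM in E-Mac and 33374 to 37129 CPM in Mac. Of these, 12 fell, 1 (Cxcr2) rose and 3 did not pass. Plasmacytoid dendritic cell markers, read because those cells carry Nrp1, summed to 667 to 865 CPM in E-Mac and 332 to 349 CPM in Mac, mostly Bst2 and Irf8. Bst2 was at 473 CPM in E-Mac and 77.8 CPM in Mac, and Irf8 at 183 CPM in E-Mac and 165 CPM in Mac. Of the 9 tested, 6 rose and 0 fell. Siglech and Ly6d, among those that rose, passed the filter through E-Mac libraries alone and so could count only as higher. The 10 T cell markers summed to 16.3 to 30.8 CPM in E-Mac and 38.4 to 47.5 CPM in Mac, with Cd3e at 0 in all 8 libraries, and the 8 osteoclast markers to 108 to 158 CPM in E-Mac and 145 to 181 CPM in Mac. Whether these other cell markers bear on the members' values was not tested. Library totals spanned 13377046 to 15740846 counts in E-Mac and 11646025 to 15556935 counts in Mac.

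By the likeness of their values over the 8 libraries (root mean square distance between centred log2 values of CPM + 1, over 8674 genes with a mean of 10 CPM or more), the genes nearest to Vegfa were Pik3ap1 (0.0841), Phf11d (0.0859) and Adap2 (0.0896), against a median distance of 1.20 over all genes compared. Pik3ap1, an adaptor for phosphoinositide 3-kinase, averaged 505 ± 55.8 CPM in E-Mac and 103 ± 6.26 CPM in Mac. Among the genes nearest to Nrp2 were Rab7b (0.0810) and the transcription factor Maf (0.130), against a median of 1.59. Maf averaged 415 ± 85.6 CPM in E-Mac and 38.4 ± 3.24 CPM in Mac.

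Around the receptors, 12 class 3 semaphorins and plexins were listed as neuropilin partners, of which 3 were tested, 2 rose and 1 fell (median log2 fold change 1.20). Of all tested genes, 29.5% rose and 28.8% fell, and these shares are the background of the lists below as well. Plxna1, a plexin that signals with neuropilins, was at 248, 211, 204 and 149 CPM in E-Mac 1 to 4, against 12.4, 17.7, 14.5 and 13.7 CPM in Mac 1 to 4. It averaged 203 ± 40.9 CPM in E-Mac and 14.5 ± 2.25 CPM in Mac (log2 fold change 3.81 ± 0.16, adjusted p = 3.88e-09). Plxnd1, the semaphorin receptor of vessels, fell (187 ± 9.71 CPM in E-Mac and 264 ± 6.28 CPM in Mac; -0.50 ± 0.06, adjusted p = 1.82e-05), and Plxna3 rose at low counts (1.20 ± 0.35, adjusted p = 0.0104). No class 3 semaphorin passed the filter: Sema3c had 47 counts in E-Mac and 0 in Mac, and Sema3g had 4 counts in E-Mac and 38 in Mac. These 2 were chosen after their values were seen.

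Downstream of the receptors, 42 signal transducers were listed and 38 tested, of which 18 rose, 6 fell and 14 did not pass the test, with a median log2 fold change of 0.16. Of all tested genes 58.3% were called, 29.5% higher and 28.8% lower. The split depended on the setting: 12 rose and 9 fell with upper-quartile factors or with library size only, 14 rose and 10 fell with the stromal score as covariate, and 4 rose and 0 fell in the test against a fold of 1.5. Their changes were small beside those of Kdr and Nrp2. The phospholipase Pla2g4a rose most clearly (75.5 ± 5.17 CPM in E-Mac and 33.8 ± 2.85 CPM in Mac; 1.16 ± 0.08, adjusted p = 7.16e-08). The p38 kinase Mapk14 fell (299 ± 21.2 CPM in E-Mac and 440 ± 9.10 CPM in Mac; -0.56 ± 0.07, adjusted p = 1.36e-05), by less than 1.5-fold. The signalling phospholipase Plcg1, the first substrate of KDR in endothelial cells, did not pass the test (-0.16 ± 0.13, adjusted p = 0.307), and the kinases Src (1.58 ± 0.38) and Ptk2 (1.68 ± 0.31) rose at low levels.

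Of 17 regulators of Vegfa transcription and mRNA stability 15 were tested, 3 rose, 4 fell and 8 did not pass (median -0.05). With library size only 2 rose and 7 fell, and with the stromal score as covariate 3 rose and 2 fell. Hif1a, the oxygen-sensitive activator of Vegfa, averaged 879 ± 41.0 CPM in E-Mac and 126 ± 3.63 CPM in Mac (2.80 ± 0.07, adjusted p = 5.67e-12). Its paralog Epas1 fell at low levels (22 counts in E-Mac and 109 in Mac; -2.13 ± 0.60, adjusted p = 0.00848). Of 3 proteins that speed the decay of AU-rich mRNAs, Vegfa among them, 2 fell and 1 rose. Zfp36 fell (1156 ± 87.2 CPM in E-Mac and 2533 ± 810 CPM in Mac; -1.13 ± 0.19, adjusted p = 0.000393), Zfp36l2 fell slightly (949 ± 100 CPM in E-Mac and 1125 ± 37.2 CPM in Mac; -0.25 ± 0.08, adjusted p = 0.0205) and Zfp36l1 rose (99.9 ± 5.49 CPM in E-Mac and 46.0 ± 5.11 CPM in Mac; 1.12 ± 0.08, adjusted p = 1.13e-07). Of the hydroxylases that mark HIF for decay, Egln3 fell (-0.41 ± 0.12, adjusted p = 0.0105), and Egln1 (-0.11 ± 0.08) and Egln2 (0.12 ± 0.08) did not pass.

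Beside the VEGF family, 27 other angiogenic factors were listed and 17 tested, of which 8 rose, 4 fell and 5 did not pass (median 0.56). Pdgfa, among those that rose, passed the filter through E-Mac libraries alone, and the median of the other 16 was 0.35. Mmp14, a membrane protease of matrix breakdown, averaged 522 ± 89.3 CPM in E-Mac and 6.88 ± 1.45 CPM in Mac (6.26 ± 0.18, adjusted p = 1.03e-10). Spp1, osteopontin, averaged 560 ± 202 CPM in E-Mac and 5.99 ± 0.802 CPM in Mac (6.55 ± 0.32, adjusted p = 1.94e-07). The semaphorin Sema4d, which acts on endothelial plexin B1, rose too (740 ± 35.2 CPM in E-Mac and 295 ± 13.7 CPM in Mac; 1.33 ± 0.07, adjusted p = 3.18e-09). The 4 that fell were Angpt1, Fgf2, Hgf and Pdgfb.

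Of 12 angiogenesis inhibitors 7 were tested, of which 6 rose, 0 fell and 1 did not pass (median log2 fold change 4.21, also with Thbs2, at 0 in Mac, at its lower bound). Thbs2 and Timp1 passed the filter through E-Mac libraries alone and so could count only as higher. Of the other 5, 4 rose and 0 fell, with a median of 3.52. With the stromal score as covariate 5 of the 7 rose and 1 fell. Thbs1, thrombospondin, averaged 7637 ± 966 CPM in E-Mac and 667 ± 203 CPM in Mac (3.52 ± 0.20, adjusted p = 9.78e-08). The chemokines Cxcl10 (4.21 ± 0.23, adjusted p = 1.60e-07) and Pf4 (7.84 ± 0.48, adjusted p = 2.11e-06), both known to restrain endothelial growth, rose as well. Thbs2 (1.71, 13.4, 1.89 and 12.0 CPM) and Timp1 (5.69, 14.9, 4.24 and 22.9 CPM) were highest in E-Mac libraries 2 and 4, those with the highest stromal sums, and the part of stromal RNA in them was not tested.

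**Figure D5:**
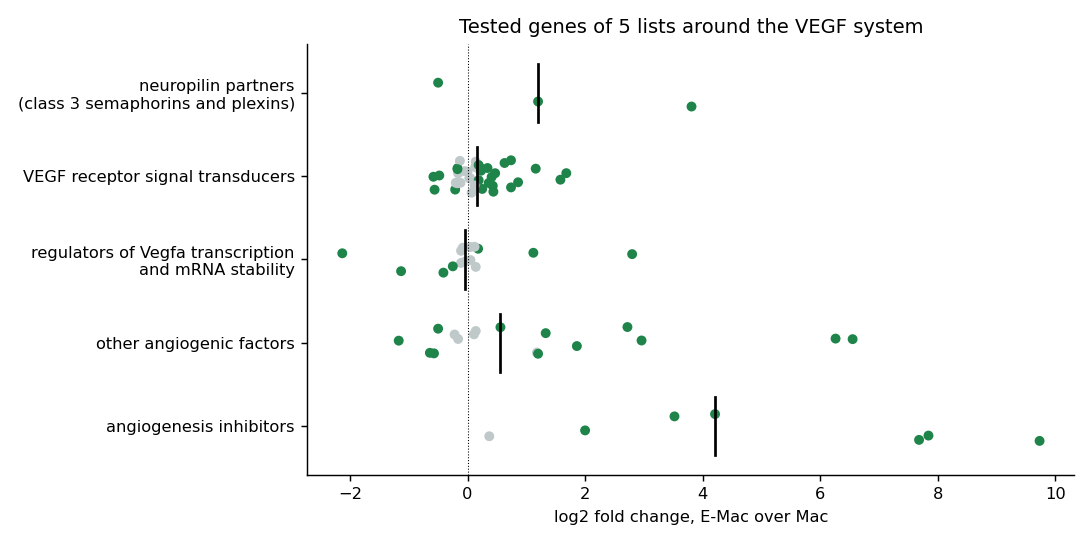
log2 fold changes, E-Mac over Mac, of the tested genes in 5 lists around the VEGF system, 1 point per gene, green where the adjusted p is under 0.05, with the list median as a black line. The medians are 1.20, 0.16, -0.05, 0.56 and 4.21 from top to bottom.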

How the data were processed

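PolyA RNA of 8 libraries (4 E-Mac, 4 Mac) was analysed from 1 table of raw counts per gene symbol, as the authors deposited it. According to the submitters' processing notes, the build was mm10 and the tools included HISAT2, featureCounts of Subread, bcl2fastq and DESeq2; the sources used here do not give settings or the annotation release. Of 53673 names, 26 date-like ones (0.133 to 0.160% of counts) were left out; 37 mitochondrial genes had 0 counts. All pairs of replicates differed beyond sampling noise (chi-square over its degrees of freedom at least 4.85).

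The test was that of edgeR 4.0.16 (R 4.3.3, filterByExpr with minimum count 10 and total 15, TMM, robust quasi-likelihood fit, Benjamini-Hochberg over 13412 genes, adjusted p under 0.05). The same fit was also run on data simulated from the means and spread of these libraries. Log2 ratios within a library (0.5 added to each count) were compared by exact permutation with SciPy 1.17.1. Counting intervals (95%) cover counting error only. The members and all gene lists were chosen with earlier results of these data known. Named genes were the members and Vegfd, the 3 genes of smallest adjusted p in each pathway list, the 2 most abundant in each marker list, and the 3 genes nearest to the most abundant ligand and receptor; others named were chosen after their values were seen, and some genes the rule gives are not reported here. Alternatives were no filter, library size only, upper-quartile or RLE factors, DESeq2 1.42.0, limma-voom (limma 3.58.1), a replicate block, no robust option, an adjusted p of 0.01, edgeR's test against 1.5-fold, the stromal score as covariate, and libraries left out. Replicate numbers were not treated as pairs in the main test.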

Additional observations from a re-analysis of the deposited data

Results flagged for a closer look

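Within each group of 4 libraries, a value was picked out where its gap to the nearest library exceeded Dixon's 95% critical share of the group's range, which chance gives in about 1 in 20 groups; 9 of 84 groups examined had one. Among the members, Vegfb was high in E-Mac 1 (5.14 CPM, against 4.38 to 4.51 CPM in the other E-Mac libraries). Vegfc was high in E-Mac 4 (0.288 CPM, which is 4 counts), and with it the log2 ratio of Vegfc to Vegfa in E-Mac 4 (-8.99). Among the other named genes, Plxnd1 was low in E-Mac 4 (173 CPM) and high in Mac 4 (274 CPM). Plxna3 was low in E-Mac 2 (1.10 CPM), Mmp14 low in E-Mac 4 (389 CPM, against 548 to 578 CPM in the other E-Mac libraries) and Maf low in Mac 1 (33.6 CPM). The summed stromal markers were high in Mac 3 (26.6 CPM).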

How the results depend on the processing

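Vegfa (2.29 to 2.70), Kdr (4.22 to 4.48), Nrp2 (3.16 to 3.82) and Flt1 (-1.68 to -1.36) kept their direction and their call in all 20 alternatives. Nrp1 kept its direction (0.35 to 1.04) but lost its call in 3: library size only (adjusted p = 0.0579), the threshold of 0.01 and the test against a fold of 1.5. Flt4 passed in 4: the stromal score as covariate (2.63, adjusted p = 0.00724), and the 3 sets of libraries named above. The stromal score is the mean log2 of CPM + 1 over the stromal markers, centred over the libraries. It was -0.0192 to 1.7797 in E-Mac and -0.9475 to -0.846 in Mac. The groups did not overlap on it, so that fit separates group from score only by the spread within groups. Vegfb turned to 0.03 ± 0.34 with the stromal score as covariate, with no call (adjusted p = 0.947); the cause was not tested. The test against a fold of 1.5 called 2968 genes, against 7814, since it asks for more than a nonzero change. Leaving out 1 library at a time gave 7233 to 7986 called genes, 5 to 7 called members of 7 or 8 tested (7 of 8 without E-Mac 2, where 55.4% of all tested genes were called; the eighth is Vegfc, which passes the filter without any 1 of the E-Mac libraries or Mac 1), and log2 ratio differences of 2.42 to 2.58 (Vegfa to Vegfb), 2.75 to 2.91 (Nrp2 to Nrp1), -5.44 to -4.78 (Vegfc to Vegfa) and -2.23 to -1.70 (Flt1 to Nrp1); 3 against 4 libraries cannot give an exact p below 0.0571. Library size only moved the median of all tested genes by -0.14 on the log2 scale (37.4% of calls higher, against 50.6%), and upper-quartile factors by -0.10 (41.8%). Same-numbered libraries correlated at -0.05, 0.07, 0.01 and -0.14, and E-Mac 2 alone correlated best with its own number. These values show no pairs but cannot exclude them, since differences among the E-Mac libraries could mask a shared source. The replicate block called 7458 genes. Plxna3 lost its call with the stromal score as covariate (adjusted p = 0.0535), as did Zfp36 (0.121), and at the stricter thresholds. Depth limits Vegfc, Pgf, Flt4 and Vegfd, whose libraries held at most 39 counts.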
